A study of Mus musculus with 4 samples.

Results

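The baseline state of activated CD4+ T cells was described from 2 of the 4 arrays of the series, those of cells that had received no interferon alpha (IFNa, a type I interferon). Male C57BL/6 mice, 6 weeks old, gave the spleens, and the T cells were enriched by negative selection, in which antibodies take away the other cell types. Beads carrying antibodies to CD3 and CD28 had stimulated the cells of all 4 samples for 48 h, so every level below is that of a stimulated culture, and no unstimulated T cells are among the samples used here. The other 2 arrays hold cells that then received IFNa at 100 U/ml for 2 h (1 array) or 8 h (1 array). The preparation note of those 2 samples also mentions JAK inhibitors without saying whether they were present, and no baseline array was taken after a further 2 h or 8 h in culture. Nothing in the labels tells if different animals or cultures lie behind the 2 baseline samples, so the difference between them measures only the spread between these samples, which may be technical.

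A resting CD4+ T cell is small and quiescent. Engagement of its antigen receptor together with CD28 makes it secrete interleukin-2, place the high-affinity interleukin-2 receptor on its surface, grow, take up glucose and amino acids and divide, and the cytokines around it then direct it towards a helper lineage. Type I interferons act through the receptor chains IFNAR1 and IFNAR2, the kinases JAK1 and TYK2 and a complex with STAT2 and IRF9 that binds interferon-stimulated response elements, and cells transcribe many of these genes at a basal level before any interferon is added.

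Signal is given as log2 of the deposited intensity, for 19752 genes with a row of their own. The order of genes is given as a percentile, the share of the 19752 genes with a lower or equal signal on that array, averaged over the 2 baseline arrays. Probes differ in how well they bind, so a percentile ranks array signal and not transcript number. As a floor, 1194 olfactory and vomeronasal receptor genes, which T cells are not known to use, served as a background reference. A gene is called above the reference when it exceeded the reference's 95th percentile on both arrays, which was a log2 signal of 7.17 on baseline 1 and 6.71 on baseline 2. That held for 11206 genes, 56.7% of all, and this share is the background for each count below.

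The highest signals at baseline came from genes of translation, the cytoskeleton and chromatin. H4c4, a histone H4 gene, had the highest mean, with a log2 signal of 14.65 and 14.59 on baseline 1 and baseline 2 (values are given in this order throughout). It was followed by Rn7sk, a small nuclear RNA that holds back transcription elongation (14.53 and 14.51), by the elongation factor gene Eef1a1 (14.44 and 14.49) and by the actin gene Actb (14.37 and 14.47). Of the 100 genes with the highest mean, 22 encode ribosomal proteins and 4 encode histones. The 20 highest also held the redox protein gene Txn1, the chaperone gene Hspa8, the class I light chain gene B2m and the mitochondrial gene COX2. Baiap2l1, an adaptor of the actin cytoskeleton best known from epithelia, ranked among them at 13.84 and 14.50, and it was the member of the 20 that differed most between the arrays. The top of the order was shared, since 85 of the 100 highest genes of baseline 1 were also among the 100 highest of baseline 2, and 891 of the highest 1000.

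**Figure D1:**
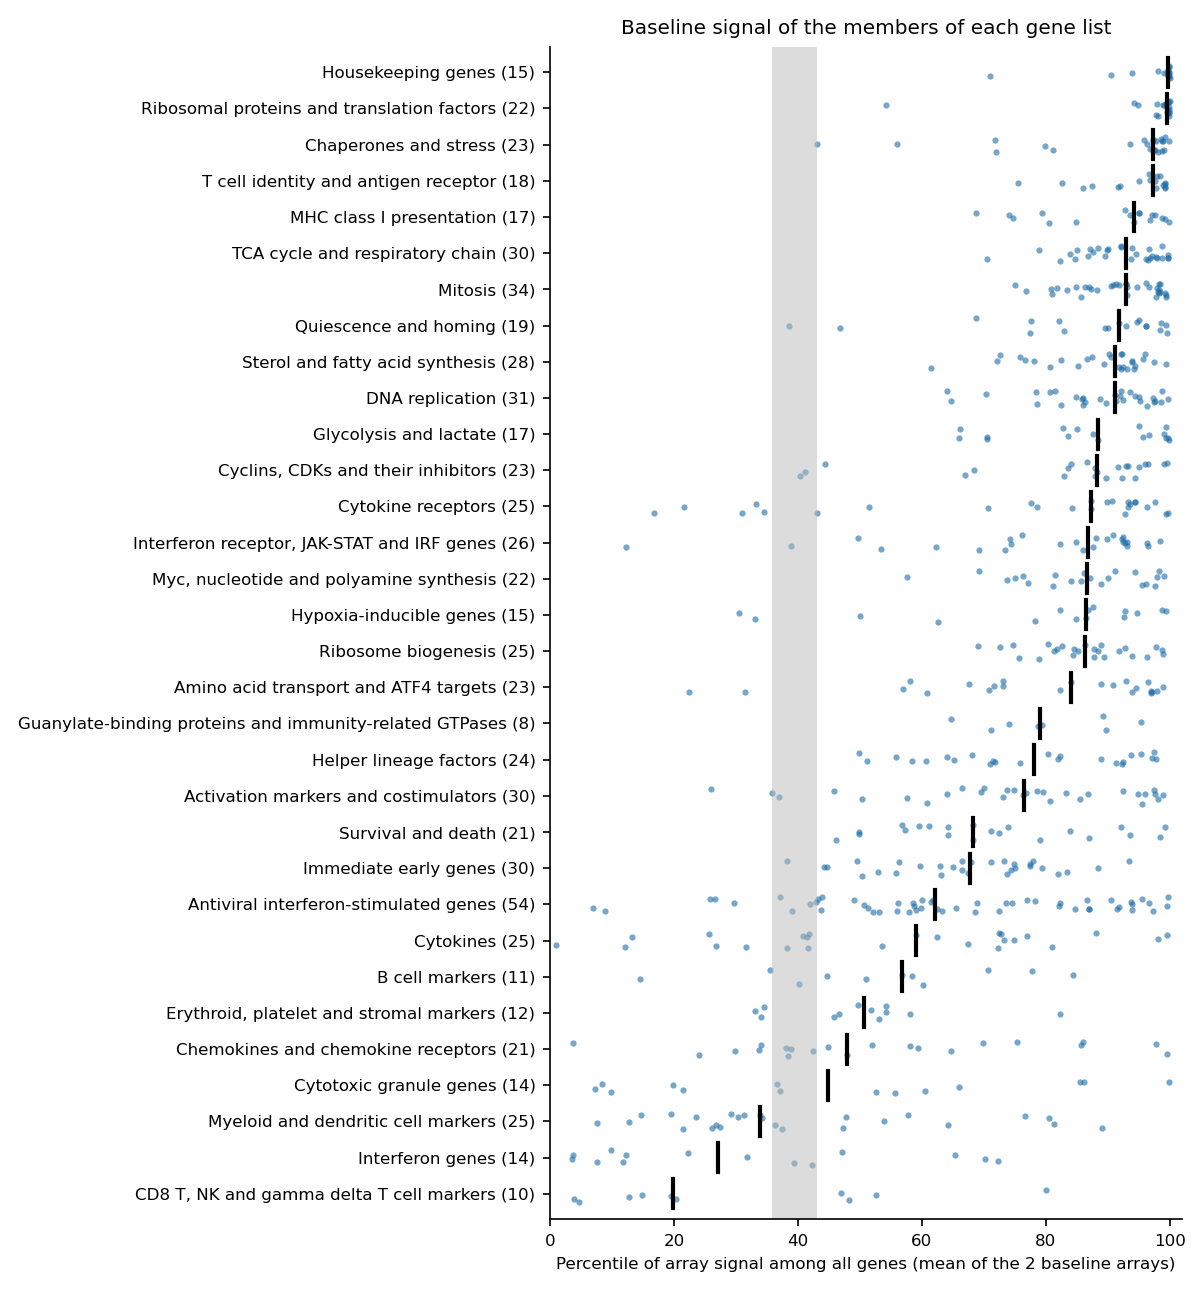
Each point is a gene, placed by its percentile of array signal among all 19752 genes, averaged over the 2 baseline arrays; rows are gene lists with the number of measured members in parentheses, black bars are list medians and the grey band spans the reference's 95th percentile on the 2 arrays. Ribosomal, chaperone, T cell identity, mitosis and DNA replication genes crowd the right side, cytokines and antiviral genes spread across the whole range, and interferon genes and markers of CD8 T and NK cells lie mostly left of the band.

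The label of the cells was checked against their markers. Of 20 listed T cell identity and antigen receptor genes, 18 were analysed and all 18 lay above the reference, at a median percentile of 97.3, where the median of all genes was 49.8. Cd3e and Cd3g, subunits of the CD3 complex, had log2 signals of 12.77 and 12.91 and of 12.91 and 12.80. Cd4 itself read 11.66 and 12.43, a 1.71-fold difference and the only 1 of these 18 genes to differ by 1.5-fold or more. Zap70, the kinase that docks on the phosphorylated receptor, read 10.80 on both arrays, and Lat, its adaptor substrate, 11.86 and 12.04.

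Of the 58 measured markers of other cell types, in 4 lists, 29 lay above the reference on both baseline arrays, against 56.7% of all genes, whose median percentile was 49.8. Of 10 measured CD8 T, NK and gamma delta T cell markers, 4 lay above the reference, at a list median of 19.9. Cd8b1, a chain of the CD8 coreceptor, read 9.78 and 9.68 (percentile 80.1), while its partner Cd8a read 7.86 and 7.49 (percentile 52.6). Of 11 B cell markers, 8 lay above the reference, at a list median of 56.8. Cd79b, a B cell receptor chain, read 10.06 and 10.09, Ms4a1, which encodes CD20, 9.17 and 8.93, and Pax5, the B lineage factor, 7.98 on both. Of 25 myeloid and dendritic cell markers, 8 lay above it, at a list median of 33.9, led by Cd74 (10.54 and 10.50) and the class II genes H2-Aa, H2-Ab1 and H2-Eb1 at percentiles from 76.6 to 81.3, whereas Csf1r, Adgre1, Itgax and Clec9a lay below it on at least 1 array. Of 12 erythroid, platelet and stromal markers, 9 lay above it, at a list median of 50.7 and percentiles up to 82.3 (Pecam1, also expressed by T cells). In bulk RNA fewer cells of a type and less RNA per cell cannot be told apart, and the part of other cells in the levels below was not tested.

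Cytokine genes were spread over the whole range of signal, and few of those that define helper lineages were high. Of 26 listed cytokine genes 25 were measured, 16 lay above the reference and the median percentile was 59.0. Mif, which is made constitutively by many cells, read 13.01 and 13.35, and Tgfb1, an inhibitory cytokine stored in latent form, 12.14 and 12.09. They were the only 2 cytokine genes in the top decile of all genes. Tnf, the inflammatory cytokine, read 10.23 and 10.59. Il2, the growth factor that activated T cells secrete, read 9.81 and 9.23 (percentile 77.0) and was higher on baseline 1. Il4 and Il13, the Th2 cytokines, read 9.17 on both arrays and 9.14 and 9.28, and Lta and Lif, made by activated T cells, 9.25 and 9.23 and 9.18 and 9.52. Ifng, the Th1 cytokine, was lower, at 7.56 and 8.00 (percentile 53.5), yet above the reference on both arrays. Il9 read 8.59 and 7.67, the largest difference among the cytokines (1.89-fold). Il17a (6.71 and 6.40), Il10 (6.27 and 6.37), Il21 (6.31 and 6.23), Csf2 (5.57 and 5.46), Il3 and Il6 did not lie above the reference.

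Cytokine receptor genes had a higher median than cytokine genes. Of 25 measured cytokine receptor genes 20 lay above the reference, at a median percentile of 87.3, and 11 stood in the top decile. Il2ra and Il2rb, which encode the alpha and beta chains of the interleukin-2 receptor, read 13.60 and 13.53 and 12.80 and 13.03, at percentiles of 99.8 and 99.4. Il4ra read 11.72 and 12.25, Il7r, the receptor of a survival cytokine of resting T cells, 11.63 and 11.57, and Il12rb2, the chain that makes a T cell responsive to interleukin-12, 10.71 and 10.65. Ifngr1 and Ifngr2 stood at percentiles of 93.6 and 94.5. The receptors for interleukin-18 (Il18r1 and Il18rap), interleukin-23 (Il23r) and oncostatin M (Osmr) and the decoy receptor Il1r2 were not above the reference. The common gamma chain gene Il2rg was not analysed here.

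**Figure D2:**
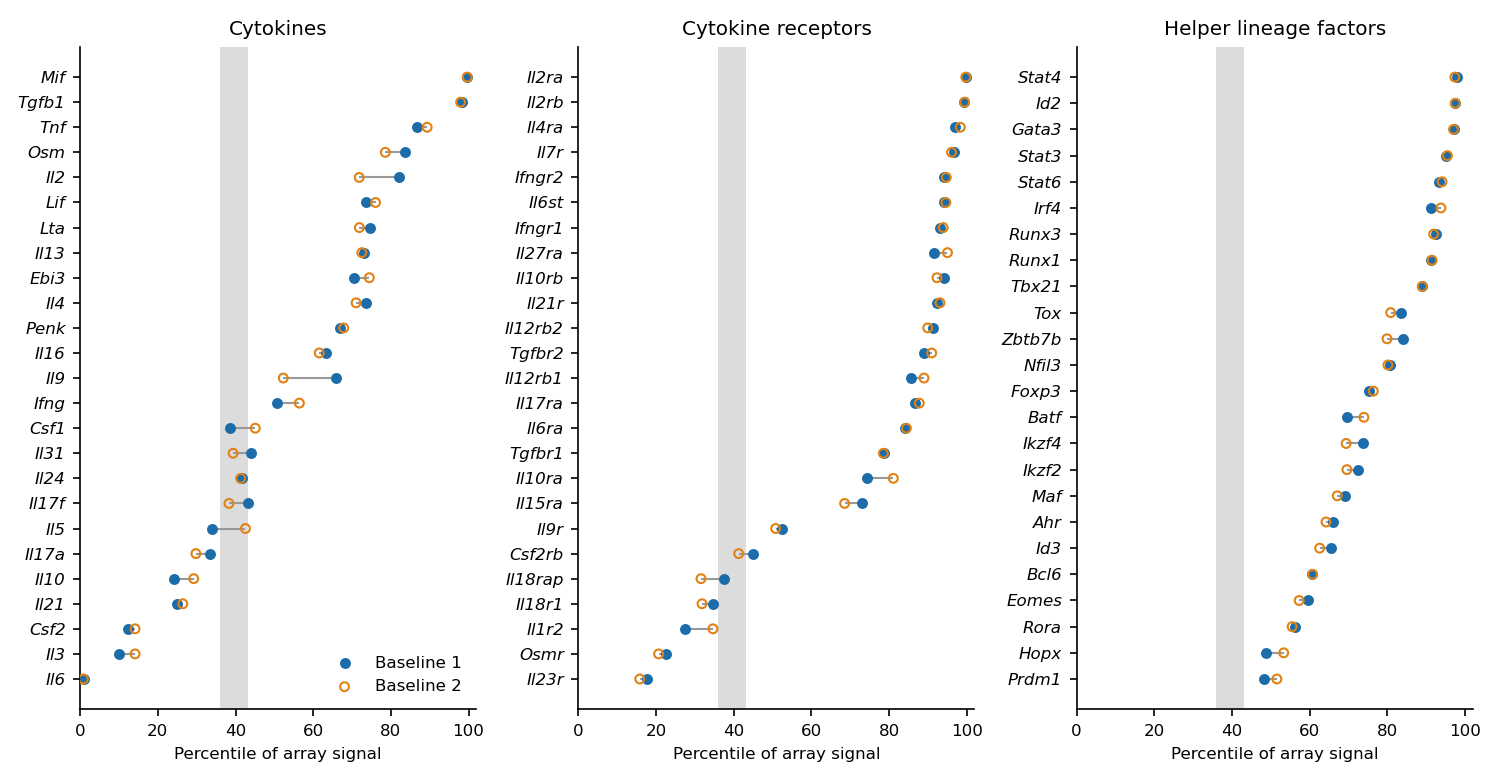
Percentile of array signal of cytokine, cytokine receptor and helper lineage factor genes on baseline 1 (filled) and baseline 2 (open), ordered by their mean, with the grey band at the reference's 95th percentile. Mif and Tgfb1 stand apart from the other cytokines, the interleukin-2 receptor chains lead the receptors at percentiles of 99.8 and 99.4, and each lineage factor lies right of the band on both arrays.

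Among 21 chemokine and chemokine receptor genes, 11 lay above the reference and the median percentile was 47.9. Ccr7, the receptor that guides T cells into lymph nodes, read 13.06 and 13.02 (percentile 99.5), and Ccr4, found on activated, Th2 and regulatory T cells, 11.95 and 12.09. Ccr8 and Cxcr3, the latter linked to Th1 cells, read 10.18 and 10.26 and 10.23 and 10.16. The chemokine genes themselves were lower. Ccl5 read 9.26 and 9.51, Ccl3 7.84 and 8.39, and Ccl4, Ccl20, Ccl1, Xcl1 and Cxcl10 did not lie above the reference, nor did the receptors Ccr6, Ccr2 and Cxcr5.

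Activation markers and costimulators had a median percentile of 76.6, with 27 of 30 above the reference. Those with the highest signal were Slc3a2, which encodes the heavy chain of amino acid transporters (12.35 and 12.71), the TNF receptor family members Cd27, Tnfrsf18 (GITR) and Tnfrsf4 (OX40) at percentiles from 97.5 to 98.1, and the CD28 relatives Ctla4 (11.47 and 11.55) and Icos (11.38 and 11.40). Tfrc, the transferrin receptor, read 11.16 and 11.43, and Cd69, an early activation marker that retains cells in tissue, 10.86 and 10.93. Cd44 was lower, at 9.73 and 9.81, and Pdcd1, the PD-1 receptor, at 8.41 and 8.71. Lag3, an inhibitory receptor for class II molecules, read 8.31 and 9.17 and was the only gene of this list at least 1.5-fold apart. Havcr2 (TIM-3), Fasl and Cd160 were not above the reference.

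Granule genes of cytotoxic cells split sharply. Of 14 genes 7 lay above the reference. Srgn, the granule proteoglycan that many blood cells make, read 13.88 and 13.66 (percentile 99.9), Nkg7 10.32 and 10.16 and Gzmb, the granule protease granzyme B, 10.22 and 10.14. Prf1, the pore-forming perforin, was at 7.62 and 7.77, and the granzyme genes Gzmc, Gzmd, Gzme, Gzmf, Gzmg, Gzmk and Gzmm did not lie above the reference.

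All 24 measured helper lineage factors lay above the reference, at a median percentile of 78.2, and none differed by 1.5-fold between the arrays. Stat4, which carries the interleukin-12 signal, read 12.05 and 11.90, Gata3, the Th2 factor, 11.80 and 11.82, and the inhibitor of DNA binding Id2 11.88 and 11.94. Tbx21, which encodes the Th1 factor T-bet, read 10.44 and 10.56 and Runx3 10.87 and 10.88. Foxp3, the factor of regulatory T cells, read 9.31 and 9.54 (percentile 75.9), close to the Ikaros family zinc finger genes Ikzf2 (9.09 and 9.07) and Ikzf4 (9.18 and 9.05). Bcl6, the factor of follicular helper cells, and its antagonist Prdm1 were lower, at 8.22 and 8.37 and at 7.43 and 7.62. Rora and Hopx lay at percentiles of 55.9 and 51.1. Factors of several lineages were thus measured together in the pooled RNA, and which cells carried which factor cannot be told apart in it.

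Genes of resting and recirculating T cells had a median percentile of 91.9, with 18 of 19 above the reference. Dapl1 read 13.30 and 13.04 (percentile 99.6), the chromatin organiser Satb1 12.80 and 12.96, the antiproliferative gene Btg1 12.22 and 12.52, and Lef1, a factor of naive T cells, 12.24 and 12.22. Foxp1 and Bach2, which hold T cells in quiescence, lay at percentiles of 96.1 and 95.1. S1pr1, the receptor for exit from lymphoid organs, read 10.52 and 10.71, its activator Klf2 9.32 and 9.74, and Foxo1 10.47 and 10.65.

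Immediate early genes, which respond within minutes of receptor engagement, lay lower, at a median percentile of 67.7, with 27 of 30 above the reference and only Nfkbia, an inhibitor of NF-kB, in the top decile (11.07 and 11.02). Nr4a1, a sensor of antigen receptor signalling also called Nur77, read 9.24 and 9.89, Egr1 9.31 and 9.77 and Egr2 9.26 and 9.45, whereas Fos read 6.78 and 7.02 and was not above the reference. Of 21 survival and death genes all lay above it, led by Casp8 (12.86 and 12.66) and the survival genes Bcl2 (12.25 and 12.27) and Mcl1 (10.93 and 11.21). The proapoptotic genes Bcl2l11, which encodes Bim, and Bbc3, which encodes Puma, stood at percentiles of 87.0 and 46.1.

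Genes of the cell cycle were high as a group. All 31 DNA replication genes lay above the reference, at percentiles from 64.1 (Orc1) to 99.7 (Pcna) with a median of 91.2. Pcna, the sliding clamp of DNA polymerases, read 13.42 and 13.40, Rrm1 and Rrm2, which encode the subunits of ribonucleotide reductase, 12.35 and 12.42 and 11.74 and 12.16, and Mcm6, a subunit of the replicative helicase, 11.33 and 11.35. All 34 mitosis genes lay above it too, from 75.0 (Pttg1) to 99.4 (Ccna2) with a median of 93.0. Ccna2, which encodes cyclin A, read 12.94 and 12.83, the cyclin B gene Ccnb2 12.86 and 12.89, Mki67, the proliferation marker, 12.79 and 12.76, and Cdk1, the mitotic kinase, 12.04 and 11.94. No mitosis gene differed by 1.5-fold between the arrays, and Mcm5 (10.99 and 11.70) and Mcm2 (10.92 and 11.55) were the replication genes that did. Of 23 cyclins, kinases and inhibitors 21 lay above the reference. Cdk4 (13.01 and 13.17) and its partner Ccnd2 (12.52 and 12.74) led, the partner Ccnd3 read 10.45 and 11.45, and Ccnd1 read 6.95 and 7.13 and was not above the reference. Of the inhibitors, Cdkn1b, the p27 gene of quiescent T cells, read 10.94 and 11.02, whereas Cdkn2b was not above the reference and Cdkn2a read 7.21 and 7.18, just past it.

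E2F and the DREAM complex, the main regulators of cell cycle transcription, are known to act through short promoter sites, which were looked for in these genes. The windows run from 250 bases before to 50 bases after the transcription start, with the sequences and starts of RefSeq on the build GRCm38.p6, and 15483 of the 19752 genes have one. The motifs and the 4 promoters printed here were chosen after values were seen, and a match is a description of letters. The letters TTTCGCGC or TTTGGCGC, forms of the E2F site, were searched on both strands, and 10 of 27 DNA replication promoters hold them (37.0%, against 1.30% of all promoters). TTTGAA, the core of the cell cycle homology region, is held by 22 of 29 mitosis promoters (75.9%, against 17.3%). The CCAAT box, searched as well, is held by 20 of 29 mitosis promoters (69.0%, against 41.7%). Over the gene lists its share ran from 18.75% (chemokines and chemokine receptors) to 85.7% (sterol and fatty acid synthesis, 18 of 21). It was 77.8% for chaperone and stress genes and 68.4% for helper lineage factors, so the CCAAT share is not particular to mitosis genes. All motifs searched were counted in every gene list, and for the E2F letters and TTTGAA those given here are the lists in which they are best known. Mcm6 and Ccnb2 are shown as examples of the 2 groups, with the searched letters in capitals; the Mcm6 window (chr1:128359656-128359955, minus strand) holds sites that start at -110, -106 and -47 from the transcription start, the first 2 overlapping on opposite strands, and the Ccnb2 window (chr9:70421505-70421804, minus strand) holds them at -167 and 5.
Mcm6: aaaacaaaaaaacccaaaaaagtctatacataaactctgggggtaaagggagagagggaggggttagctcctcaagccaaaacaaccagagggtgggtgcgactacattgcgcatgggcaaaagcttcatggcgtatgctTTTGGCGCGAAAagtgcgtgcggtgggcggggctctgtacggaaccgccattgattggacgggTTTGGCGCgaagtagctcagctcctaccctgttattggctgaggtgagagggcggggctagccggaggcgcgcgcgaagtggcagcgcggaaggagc
Ccnb2: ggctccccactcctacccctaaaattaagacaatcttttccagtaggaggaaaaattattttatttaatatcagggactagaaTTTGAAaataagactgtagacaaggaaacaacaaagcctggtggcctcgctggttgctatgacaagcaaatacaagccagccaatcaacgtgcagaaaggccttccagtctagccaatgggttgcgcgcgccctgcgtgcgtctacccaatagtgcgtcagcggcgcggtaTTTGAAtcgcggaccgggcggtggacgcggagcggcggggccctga
Ordered by baseline signal and leaving out the middle gene, 4 of the 13 lower-ranked and 5 of the 13 higher-ranked replication promoters hold the E2F letters, and 10 of 14 lower-ranked and 11 of 14 higher-ranked mitosis promoters hold TTTGAA, so the letters are about as frequent at either end of these lists.

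Genes of metabolism and biosynthesis were above the reference nearly throughout. All 17 glycolysis and lactate genes lay above it, at a median percentile of 88.5. Ldha, which turns pyruvate into lactate, read 13.74 and 13.91, Aldoa 13.45 and 13.64, Slc2a1, the glucose transporter GLUT1, 11.32 and 12.07, and Hk2, an inducible hexokinase, 8.47 and 8.96. Of 15 hypoxia-inducible genes 13 lay above the reference, among them Bnip3l (13.23 and 12.88), the factor gene Hif1a (12.44 and 12.49) and Egln3 (11.35 and 11.17), while Car9 and Adm did not. All 30 genes of the TCA cycle and respiratory chain lay above it at a median of 93.0, led by Cycs, Cox6c and Atp5b at percentiles from 99.7 to 99.8. All 28 sterol and fatty acid synthesis genes did at a median of 91.2, with Scd2 at 12.98 and 13.06, Fdft1, which makes squalene, at 11.91 and 11.88, and the regulators Srebf2 and Srebf1 at 11.34 and 11.67 and 9.54 and 10.02.

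Genes that supply building blocks for growth were also high. Myc, which encodes a transcription factor that drives metabolic change in activated T cells, read 11.88 and 12.05 (percentile 97.7), and all 22 genes of its list lay above the reference at a median of 86.6, led by the purine enzyme gene Paics (12.55 and 12.89) and the polyamine enzyme gene Srm (11.99 and 12.42). All 25 ribosome biogenesis genes did (median 86.4, highest Npm1 and Ncl at 98.9 and 98.7), as did all 23 chaperone and stress genes (median 97.3) and all 22 ribosomal protein and translation factor genes (median 99.5). Of 23 amino acid transport and ATF4 target genes 21 did, led by Slc3a2 and its light chain partner Slc7a5 (11.89 and 12.24), with the cystine transporter Slc7a11 (6.11 and 6.09) and Slc38a5 below the reference.

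Interferon-stimulated genes were present before IFNa at levels that ranged from near the top to the floor. Of 61 listed antiviral genes 54 were analysed, 44 of these lay above the reference (81.5%, against 56.7% of all genes) and the median percentile was 62.2, with 11 in the top decile. Ly6e, a membrane protein that restricts viruses, read 13.42 and 13.59 (percentile 99.8) and Samhd1, which depletes nucleotides, 13.22 and 13.24 (percentile 99.6). Sp100 and Pml, components of nuclear bodies, read 11.96 and 11.74 and 10.72 and 10.93, and Trim30a, a regulator of signalling, 11.14 and 11.06. A middle group held the tetherin gene Bst2 (8.90 and 8.88), the deconjugase gene Usp18 (8.36 and 8.64), the kinase gene Eif2ak2 (8.40 and 8.36) and Ifit1 (8.14 and 7.97). Of the Ifitm genes, which block viral entry, Ifitm2 read 10.86 and 10.74, Ifitm1 8.07 and 8.17 and Ifitm3 7.63 and 7.58. The 10 genes not above the reference were Ifi208, Slfn5, Oas1a, Oasl2, Rsad2, Rtp4 (6.59 and 6.34), Mx1 (6.18 and 6.45), Ddx60, Ifi205 and Mx2 (5.02 and 4.96). Just inside the threshold lay Oas2 (7.35 and 6.91) and Ifit3 (7.32 and 7.02), and just outside it Ifi208 (7.11 and 7.24) and Slfn5 (7.03 and 7.23). Lgals3bp, a secreted lectin ligand (9.60 and 10.65), was the only antiviral gene kept by the filter that was at least 1.5-fold apart between the baseline arrays, at 2.06-fold.

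**Figure D3:**
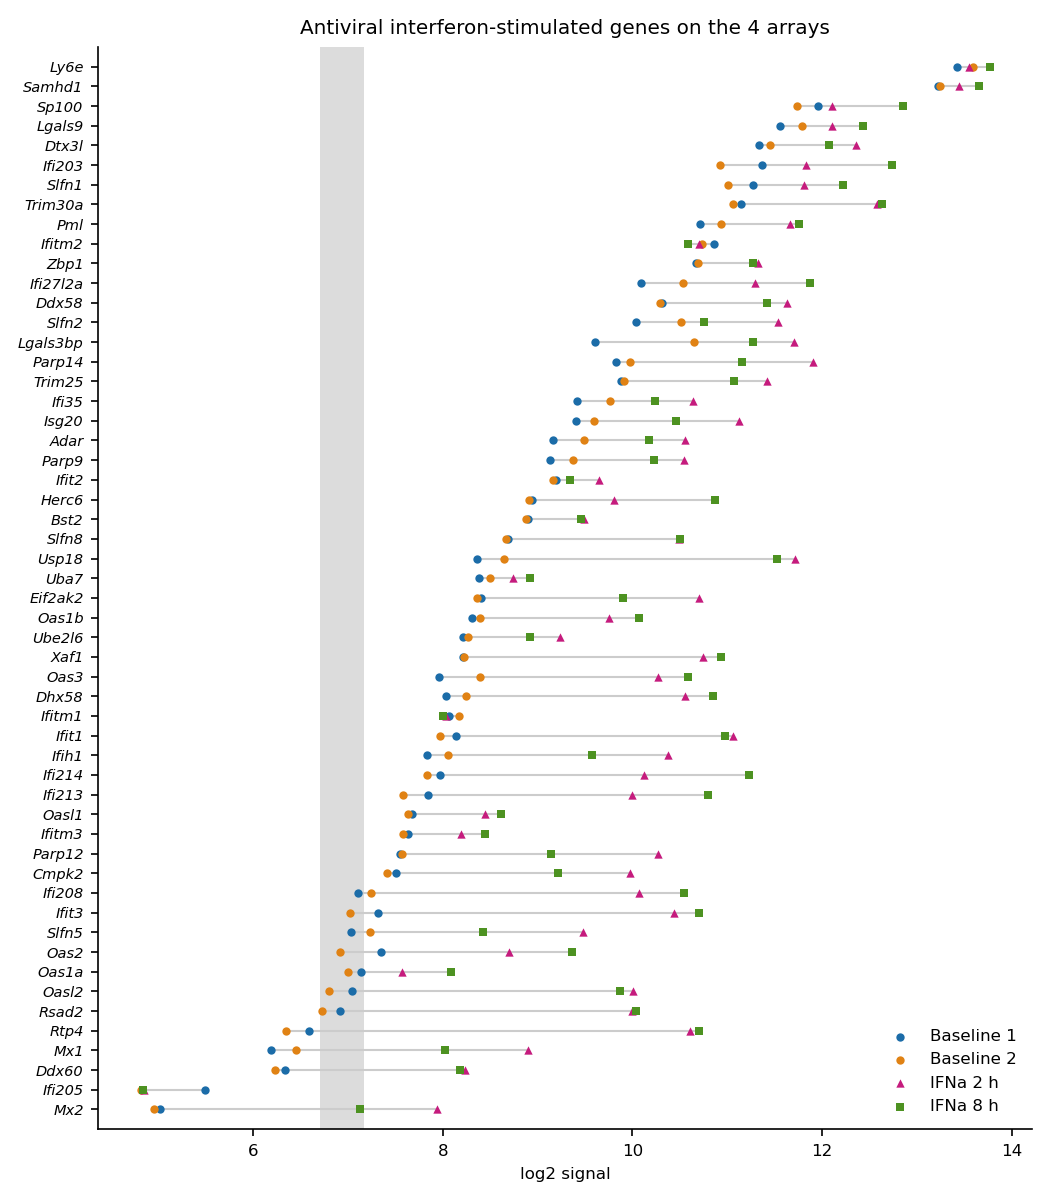
Log2 signal of the 54 antiviral interferon-stimulated genes on the 4 arrays, ordered by their baseline mean, with the grey band between the 2 baseline arrays' reference thresholds. Baseline means run from Mx2 (5.02 and 4.96) up to Ly6e (13.42 and 13.59), and the IFNa points lie right of both baseline points for most genes of the middle and lower rows, such as Rtp4 (10.61 and 10.70).

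The components that sense and transmit type I interferon were well above the floor. Ifnar1 and Ifnar2, the receptor chains, read 10.23 and 10.51 and 11.04 and 10.98. Jak1 read 12.21 and 12.36 and Tyk2, the partner kinase, 9.24 and 9.40. Irf9 read 10.16 and 10.29 and Stat2 9.12 and 9.50. Irf7, the factor that amplifies interferon production, was at 7.28 and 7.80 (percentile 49.8), in contrast with Irf1 (10.78 and 10.99) and Irf8 (11.74 and 11.53). Of the negative regulators, Socs1 read 10.22 and 10.59 and Socs3 9.15 and 9.36. Of all 26 measured receptor, JAK-STAT and IRF genes 24 lay above the reference, at a median of 86.8, and the RNA sensor Tlr3 (5.59 and 5.29) and Tlr7 (7.17 and 6.65) did not.

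Interferon genes themselves were mostly at the floor. Ifnb1 read 5.42 and 5.40 (percentile 11.8), and 9 of the 14 measured interferon genes were not above the reference. The 5 that were are Ifnl2 (9.28 and 9.07), Ifna5 (9.19 and 8.84), Ifnz (9.01 and 8.24), Ifna14 and Ifna2. The Ifna genes are near-identical copies, so their signals cannot be assigned to 1 copy with certainty. Ifna5, Ifnz and Ifnl2 read lower on baseline 2, as did 13 of the 14 genes as deposited and 10 of 14 after quantile normalization. As deposited, 10438 of all 19752 genes and 1125 of the 1194 reference genes also read lower on baseline 2. Ifna5, Ifnz and Ifnl2 lay in the seventh and eighth deciles of genes by level, where the median difference was 0.17. Whether the count is particular to interferon genes was not tested. The share of all genes after quantile normalization is not given here. All 8 measured guanylate-binding protein and immunity-related GTPase genes, which interferon gamma also induces, lay above the reference, from Gbp3 (8.65 and 8.55) to Gbp4 (11.47 and 11.29). All 17 genes of class I antigen presentation did, with Tap1, the peptide transporter, at 11.60 and 11.84, the immunoproteasome gene Psmb9 at 11.09 and 11.63 and their activator Nlrc5 at 11.28 and 11.35. The class I heavy chain genes H2-K1 and H2-D1 were not analysed here.

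The core of the interferon-stimulated response element, GAAA repeated after any 2 bases, was searched on both strands in the same promoter windows. It stands in 21 of 42 antiviral promoters and in 3.88% of all promoters. Within the antiviral list 14 of the 21 promoters of lower-ranked genes (percentiles from 8.83 to 61.9) and 7 of the 21 of higher-ranked genes (62.5 to 99.6) hold it, a difference that is described and not tested. Trim30a, high at baseline, and Ifit3, near the floor, are shown because both hold it. The Trim30a window (chr7:104465144-104465443, minus strand, 1 of 2 starts in the table) holds it at -36 and the Ifit3 window (chr19:34583279-34583578, plus strand) at -156 and -122, each on the opposite strand, so that the printed capitals read as the reverse complement.
Trim30a: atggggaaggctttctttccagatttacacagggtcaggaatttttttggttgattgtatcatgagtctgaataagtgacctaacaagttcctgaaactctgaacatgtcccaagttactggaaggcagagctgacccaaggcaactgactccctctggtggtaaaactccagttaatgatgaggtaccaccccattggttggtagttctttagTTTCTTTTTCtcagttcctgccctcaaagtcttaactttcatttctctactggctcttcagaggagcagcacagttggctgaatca
Ifit3: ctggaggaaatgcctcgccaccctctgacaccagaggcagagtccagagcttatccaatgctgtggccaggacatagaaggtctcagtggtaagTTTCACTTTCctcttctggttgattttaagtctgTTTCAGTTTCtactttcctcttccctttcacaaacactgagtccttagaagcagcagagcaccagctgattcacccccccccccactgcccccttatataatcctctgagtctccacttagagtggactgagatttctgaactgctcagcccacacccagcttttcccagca
The 2 genes thus share these letters at baseline percentiles of 93.7 and 43.9.

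The baseline arrays were closely alike in order. Across the 19752 genes, which are not independent replicates, Pearson's r between them was 0.991 and Spearman's rho 0.992. Over the 10699 genes kept by the filter (brighter than the median row of an array, on any of the 4 arrays), the median size of the log2 difference was 0.18, which is 1.13-fold, the 95th percentile was 0.57, and 95.6% of genes were within 1.5-fold. The median gene moved by 1.97 percentile points. Of these genes 41 were at least 2-fold apart (0.383%), 29 higher on baseline 2 (0.271%) and 12 higher on baseline 1 (0.112%), and 476 were at least 1.5-fold apart (4.45%), of which 408 were higher on baseline 2 (3.81%) and 68 on baseline 1 (0.636%). After quantile normalization of the 4 arrays, 27 were at least 2-fold apart, 15 higher on baseline 2 and 12 on baseline 1. With 1 array against 1 there is no test of any of these differences.

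**Figure D4:**
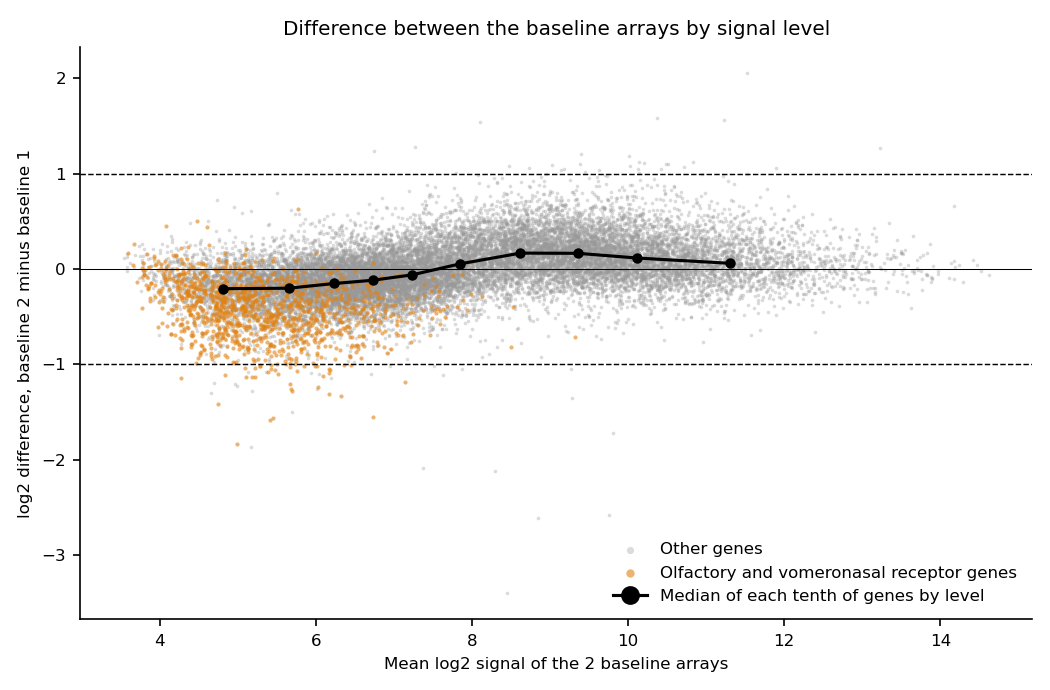
Log2 difference between the baseline arrays (baseline 2 minus baseline 1) against the mean log2 signal, with 1 point per gene, the reference genes in orange, dashed lines at 2-fold and black points at the median of each decile of genes by level. The medians pass from -0.21 in the dimmest decile to 0.17 in the seventh and eighth and 0.06 in the brightest, and most reference genes lie below 0.

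The difference depended on the level of signal. Its median was -0.21 in the dimmest decile of genes, passed 0 between the fifth (-0.06) and the sixth decile (0.06), and was 0.17 in the seventh and eighth and 0.06 in the brightest. The reference genes read lower on baseline 2 in 1125 of 1194 cases, with a median difference of -0.41. Signals of dim genes on baseline 2 therefore lay lower and signals of middle and bright genes higher, and the 8 h array differed from the baseline mean in the opposite way, with medians of 0.28 in the fourth decile and -0.30 in the eighth. The cause of this level-dependent difference was not tested.

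The largest differences were those of single genes. Eif5a, the translation factor that carries hypusine, read 10.50 and 12.56, a 4.16-fold difference, and Dohh, the enzyme that completes the hypusine residue, 6.63 and 7.91. Snrpb, a core protein of the spliceosome, read 9.58 and 11.17 and Hnrnpa0, an RNA-binding protein, 7.33 and 8.87. Trbv1, a variable segment of the T cell receptor beta chain, read 10.45 and 12.02, and the mitochondrial genes Atp5d, Aldh2 and Samm50 were 2.18-fold to 2.42-fold higher on baseline 2. Higher on baseline 1 were Srsy, a multicopy gene of the Y chromosome (10.15 and 6.75, 10.55-fold), Mir680-1 (10.15 and 7.54), Mir680-2 (11.04 and 8.46) and several predicted transcripts. The 10 most different genes in this direction also held Macrod2, Krtap5-2, Igkv10-96 and Vmn1r208, a vomeronasal receptor gene of the background reference. Over the 41 genes at least 2-fold apart, the 2 h array was nearer to baseline 2 for 28 of the 29 higher there. The same held for 12 of the 12 genes higher on baseline 1. For the 8 h array the counts were 9 of 29 and 6 of 12. The 41 genes were picked for this difference, and the share among all genes is not given here. Reference genes had a median log2 signal of 4.98 for the 2 h array, 5.01 for baseline 2 and 5.44 for baseline 1. The median for the 8 h array was 5.32. Whether the counts are particular to the 41 genes was not tested.

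The Mir680 genes are copies that share 1 mature microRNA, so their rows cannot be taken as separate measurements, and another copy, Mir680-3, read 10.02 and 9.28. The array's probes lie in the gene and do not single out the mature form. Their common mature sequence from RefSeq is shown beside both arms of Mir142, a microRNA gene of blood cells that read 9.46 and 10.07 (percentile 80.6), with the seed, bases 2 to 8, in capitals.
mmu-miR-680: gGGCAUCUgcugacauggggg
mmu-miR-142a-5p: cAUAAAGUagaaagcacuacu
mmu-miR-142a-3p: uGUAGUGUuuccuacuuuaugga
Of 299 microRNA genes with a row of their own 79 lay above the reference, and 7 reached the 80th percentile, so that Mir142 belonged to the highest of them.

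Of all 10699 genes kept by the filter, 67.5% were higher on baseline 2 as deposited, 56.6% after quantile normalization and 79.8% with arrays centred on their medians. The counts of a list cover all its measured members, kept by the filter or not. These shares are therefore a like background only where every member was kept, as for glycolysis. Of all 19752 genes, 9303 were higher on baseline 2 as deposited. The share of all genes under the other scalings is not given here. All 17 genes of glycolysis were higher on baseline 2, with a median log2 difference of 0.48 against 0.10 for all genes kept by the filter, and 5 were at least 1.5-fold higher (3.81% of all genes tested were). These were Aldoc (8.48 and 9.58), the lactate exporter Slc16a3 (9.49 and 10.57), Slc2a1, Pfkl (9.81 and 10.46) and Slc2a3 (10.06 and 10.68). After quantile normalization all 17 were still higher, with a median of 0.35. Of 30 immediate early genes 26 were higher on baseline 2 (25 after quantile normalization), with a median of 0.37 and 0.30, and Dusp6, Csrnp1, Jund, Ier2 and Nr4a1 were at least 1.5-fold higher. The list of Myc, nucleotide and polyamine genes had a median of 0.33 and that of sterol and fatty acid synthesis 0.30. Of 54 antiviral genes 28 were higher on baseline 2 as deposited (51.9%), 30 after quantile normalization and 38 with centred arrays (70.4%), with a median of 0.01 as deposited. The medians of mitosis genes (0.06), helper lineage factors (0.06) and guanylate-binding proteins (0.03) turned to -0.04, -0.01 and -0.09 after quantile normalization. With 1 array against 1 these counts are descriptions, and the genes of a list share the array.

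**Figure D5:**
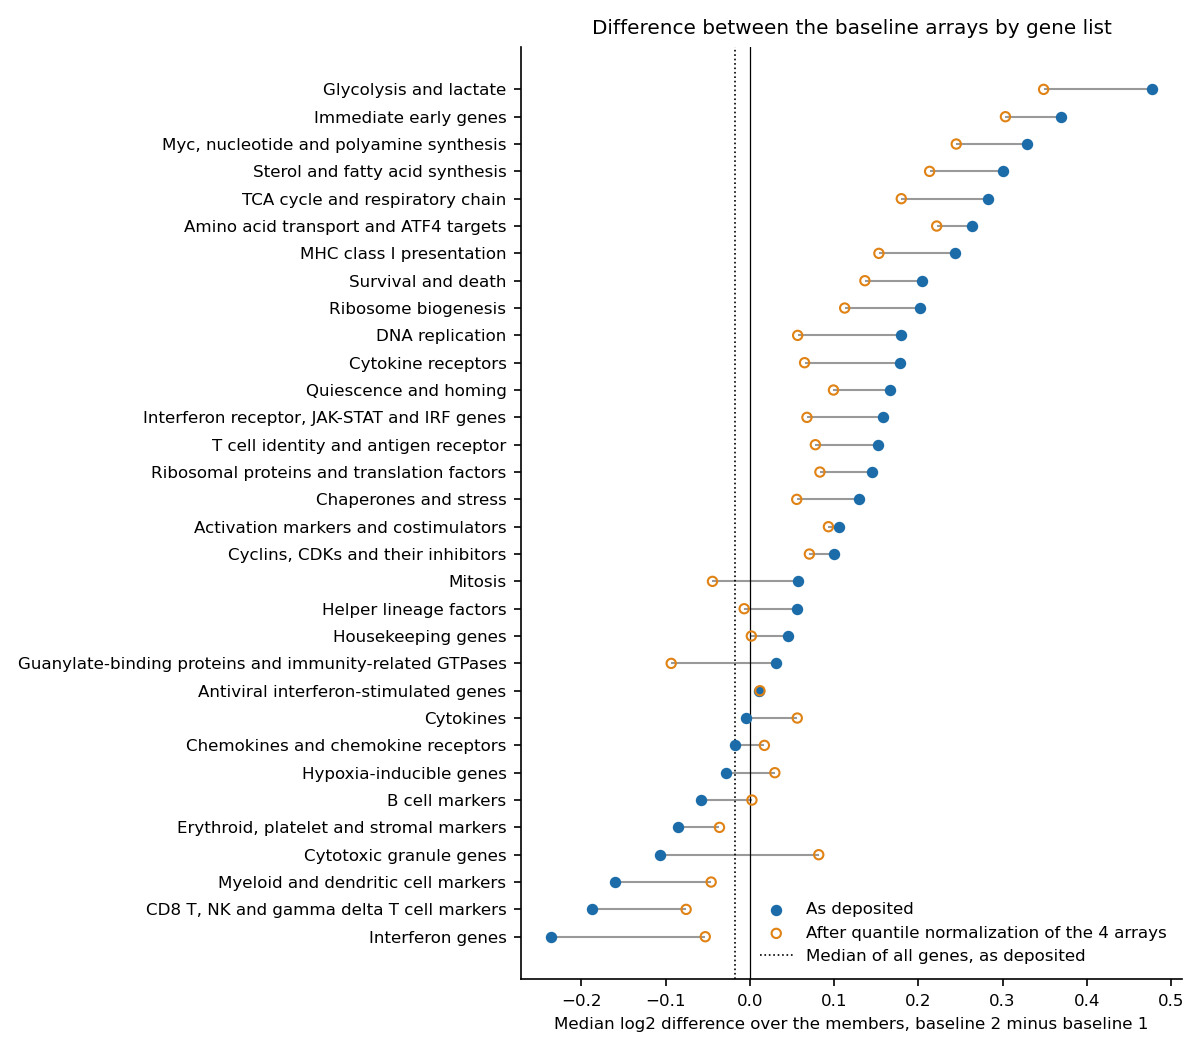
Median log2 difference between the baseline arrays (baseline 2 minus baseline 1) over the members of each gene list, as deposited (filled) and after quantile normalization of the 4 arrays (open), with the median of all genes dotted. Glycolysis and immediate early genes have the highest medians, 0.48 and 0.37 as deposited, and interferon genes the lowest, -0.24.

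Set against the IFNa arrays, the baseline spread decided what could be called. In a limma fit over the 4 arrays, in which the 2 baseline arrays give the only residual degree of freedom, 118 of 10699 genes tested were called at 2 h (1.1%) at a Benjamini-Hochberg adjusted p under 0.05, of which 117 rose (1.09%) and 1 fell (0.00935%). At 8 h 428 were called (4%), of which 70 rose (0.654%) and 358 fell (3.35%). Each later group is 1 array, assumed to vary like the baseline arrays, and IFNa and further time in culture cannot be told apart. Antiviral genes that were at the floor before IFNa were among the largest changes. Rtp4 read 6.59 and 6.34 at baseline and 10.61 and 10.70 at 2 h and 8 h. As it was not above the reference at baseline, its change has only a lower bound. This was taken against the higher of the reference threshold and its own signal on each baseline array. By this bound Rtp4 was at least 12.7-fold higher at 2 h and at least 13.6-fold higher at 8 h. Mx1, read at 6.18 and 6.45 and then at 8.90 and 8.02, was at least 3.89-fold and at least 2.12-fold higher. Ifit3, just above the reference at baseline, rose by 3.27 and 3.53 on the log2 scale, Usp18 by 3.22 and 3.02 and Irf7 by 3.15 and 3.23. Rtp4, Mx1 and Ifit3 lay below the median row of both baseline arrays. They passed the filter only through the IFNa arrays, where they were high, so no p-value is given for them. With no filter, which could otherwise keep a gene through an IFNa array alone, 28 of 54 antiviral genes rose at 2 h (0.425% of all genes tested did) and 28 of 54 at 8 h (0.213% did). Bst2 read 8.90 and 8.88 and then 9.49 and 9.46, and its differences of 0.60 and 0.56 did not pass (limma adjusted p = 0.2963 and 0.1437), though that at 8 h passed after quantile normalization, at 0.85 (limma adjusted p = 0.004318).

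Genes that were high at baseline were among those that fell at 8 h. Il2, at 9.81 and 9.23, read 10.22 at 2 h and 7.29 at 8 h, where it fell by 2.23 (SE 0.27, limma adjusted p = 0.005081), and the 8 h value lay below both baseline arrays by more than their difference. Il4 fell by 1.37, Tnf by 1.30 and Myc by 1.20 at 8 h (limma adjusted p from 0.01278 to 0.02329); with no filter the falls of Tnf and Myc no longer passed (limma adjusted p = 0.05181 for both). Ccr8 rose by 1.35 at 2 h and fell by 1.46 at 8 h (limma adjusted p = 0.01834 and 0.009833). Of the metabolic lists, 16 of 28 sterol and fatty acid genes fell at 8 h, led by Fads2 (11.25 and 11.19, then 10.90 and 8.70), as did 8 of 13 hypoxia-inducible genes tested, led by Ak4 (10.23 and 10.36, then 9.53 and 7.56), 11 of 22 Myc, nucleotide and polyamine genes, 10 of 25 ribosome biogenesis genes and 4 of 17 glycolysis genes. The 8 h array also read lower than the baseline mean over brighter genes in general, with a median of -0.30 in the eighth decile of genes by level. The part of this level-dependent difference in these counts was not tested. Of all 10699 genes tested, 3.35% fell at 8 h as deposited. After quantile normalization 21 sterol, 8 hypoxia, 14 Myc-list, 15 ribosome biogenesis and 12 glycolysis genes fell at 8 h, but so did 900 of all 10699 genes, against 358 as deposited. With no filter, where 0.511% of all genes fell, the counts were 11 of 28 sterol, 5 of 15 hypoxia, 2 of 22 Myc-list, 3 of 25 ribosome biogenesis and 2 of 17 glycolysis genes.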

How the data were processed

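Gene expression in splenic CD4+ T cells was measured on Affymetrix whole-transcript arrays. The authors' deposited intensity values are linear; the submitters' processing notes name RMA and Affymetrix Power Tools (versions and the set of arrays normalized together are not given in the sources used). RMA keeps some unspecific signal and so understates folds of dim genes, and the number of arrays limits the precision. Log2 of the intensity was taken here with no pseudocount. Median intensities were 195 (baseline 1), 183 (baseline 2), 176 (2 h) and 199 (8 h).

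Of 24922 rows, 21425 had 1 gene symbol in the platform annotation, 1399 had several and 2098 had none listed. For 921 genes with several rows the brightest row by mean was used. A RefSeq table of GRCm38.p6 changed 0 symbols and lacked 75. The filter kept 10699 genes brighter than the median row of any array and put 9053 aside.

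The baseline arrays were compared by counts at 2-fold and 1.5-fold with no test. Baseline and IFNa arrays were compared with limma 3.58.1 in R 4.3.3 (lmFit and eBayes, 3 groups, two-sided, Benjamini-Hochberg over 10699 genes, threshold 0.05). On simulated data for the 2 h comparison with 200 changed genes of 10699, this fit recovered 7.46% of 2-fold, 98.5% of 4-fold and 100% of 8-fold changes, with 2.14% false calls. The simulated noise was independent between genes, followed the spread that limma had estimated, and held no level-dependent difference between arrays. The 2.14% therefore belongs to the simulation and is not the false-call rate of these arrays. Alternatives were quantile normalization, arrays centred on their medians, 3 filters, another choice of row, an intensity trend, other reference percentiles and leaving out each baseline array.

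The gene lists and the rule for named genes were chosen with earlier results of these data known. The rule takes the 20 highest genes, the 6 highest and 3 lowest members of each list, list members at least 1.5-fold apart, the 10 most different genes in each direction, at most 4 called members a list and time, and a fixed set. Genes named outside the rule, the motifs, the promoters and the microRNAs were chosen after their values were seen. Left out were rows with several symbols or none.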

Additional observations from a re-analysis of the deposited data

Results flagged for a closer look

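Rows outside the gene table also carried signal at baseline. Of 2098 rows with no symbol listed, 1069 (50.95%) lay above the background reference on both baseline arrays, and of 1399 rows with several symbols 861 (61.5%) did, against 56.7% of the 19752 genes.

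For 7 genes named above, the 8 h array lay below the 2 h array by more than the limma fit's threshold, a comparison of 1 array with 1 whose spread comes from the baseline arrays alone. These genes were named with their changes known, some of them for their fall at 8 h, so the values are descriptions. The log2 difference of 8 h against 2 h was -2.93 for Il2, -2.82 for Ccr8, -2.20 for Fads2, -1.98 for Ak4, -1.76 for Tnf, -1.43 for Il4 and -1.17 for Myc.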

How the results depend on the processing

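The median percentiles of the 32 lists were recomputed under 4 alternatives each. Of these 128 values, 103 lay within the spread between the baseline arrays of the reported one and 25 beyond it, and none was over 4.32 percentile points from it. The alternatives that left out a baseline array use the same single-array medians that set this spread. Their values tend to lie within it by construction, so the 103 is no measure of robustness. The 11206 genes above the reference stayed within 1.5 times that count under each setting tried (8688 with the reference's 99th percentile, 12662 at the most). The 41 genes at least 2-fold apart between the baseline arrays became 27 after quantile normalization (15 higher on baseline 2), 94 with no filter (30 higher on baseline 2, 64 on baseline 1) and 476 at 1.5-fold. Genes called by limma at 2 h (118) became 440 after quantile normalization (331 rose, 109 fell) and 298 with centred arrays (291 rose, 7 fell). At 8 h (428) they became 1562 (662 rose, 900 fell), 794 (70 rose, 724 fell), 143 with no filter (42 rose, 101 fell) and 255 with the stricter filter (52 rose, 203 fell). Without a baseline array limma has no residual degrees of freedom, so genes at least 2-fold from baseline were counted with no test: 144 and 366 without baseline 1 and baseline 2 at 2 h (196 with both), and 528 and 310 at 8 h (339 with both). The cause of these moves was not tested. Of the effects of named genes under alternatives with a test, 150 kept their direction and side of the threshold. Another 2 changed direction, 2 passed only under the alternative and 2 no longer passed. These genes were named with their changes known. They include Rtp4, Mx1 and Ifit3, which passed the filter only through the IFNa arrays, so the 150 is no measure of robustness. The calls of Tnf and Myc at 8 h were lost with no filter, and Ak4 at 2 h (-0.91) and Bst2 at 8 h (0.85) passed only after quantile normalization. Effects at 2 h that passed under no setting changed sign for Il4 (0.0557, and -0.0642 after quantile normalization) and for Myc (-0.0286, and 0.0708 with centred arrays or 0.0564 without baseline 2). No paired analysis was possible because the groups share fewer than 2 replicate numbers.

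These values describe 2 arrays of 1 group, with no sign of whether they are separate cultures. Signal near the reference carries no order, which limits statements on genes such as Mx1, Il17a and Il10. Array signal ranks probes and not transcripts.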
